A study of Mus musculus with 8 samples.

Results

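Gas5, Snhg1, Snhg3, Snhg5, Snhg6, Snhg8, Snhg12 and Snhg15 are noncoding snoRNA host genes: they make no known protein, and their introns hold small nucleolar RNAs (snoRNAs). These 8 genes were chosen by name and not by a cut on measured values, although earlier results of these data were known. They are 8 of the 54838 gene identifiers counted. All 8 passed the filter on low counts and were among the 13903 genes tested. The RNA came from splenic natural killer (NK) cells of mice, sorted as CD45+, CD49b+ and CD3-, and kept for 12 to 16 h in medium with cytokines before freezing. The hNK group was 4 libraries from healthy wild-type FVB/n mice, and the teNK group was 4 libraries from MMTV-PyMT mice, which the series describes as bearing tumours. MMTV-PyMT mice carry the polyoma virus middle T oncogene behind a promoter that is active mainly in mammary epithelium. The genetic background of the MMTV-PyMT mice, the age of the mice, the number of mice per library and the cytokines are not given in the sources used here. The labels do not say that the 4 libraries of a group came from separate mice, and the p-values then cover only the spread between libraries, which may be technical.

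A snoRNA host gene is transcribed by RNA polymerase II and spliced, and most snoRNAs of mammals are trimmed out of the removed introns. Box C/D snoRNAs guide ribose methylation and box H/ACA snoRNAs guide pseudouridylation, mainly of ribosomal RNA, and a few act in cleavage of the ribosomal RNA precursor instead. The spliced exons of noncoding hosts hold only short reading frames, and when ribosomes reach them the RNA is often removed by nonsense-mediated decay, the pathway that destroys messages with early stop codons. Many hosts begin with a 5′ terminal oligopyrimidine (5′ TOP) run, a C followed by pyrimidines, as do the genes of ribosomal proteins and translation factors, which ties their translation to mTOR and LARP1. Gas5 was named for its accumulation in growth-arrested cells, and its spliced RNA is known to bind the glucocorticoid receptor.

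The starts of the genes are shown because the 5′ TOP run and the TATA box are the sequence features that hosts are known for. Each line gives 50 bases before and 25 bases from a RefSeq start (build GRCm38.p6, gene strand, 5′ to 3′). Capitals mark a pyrimidine run, taken as a C followed by at least 4 C or T and beginning within 5 bases of the start, and the letters TATA 35 to 20 bases before it.
Gas5, first start, chr1:161034551-161034625, plus strand: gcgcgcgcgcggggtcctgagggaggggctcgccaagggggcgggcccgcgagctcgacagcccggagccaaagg
Gas5, downstream start, chr1:161035116-161035190, plus strand: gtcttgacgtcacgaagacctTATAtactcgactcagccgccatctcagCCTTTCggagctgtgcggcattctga
Snhg1, chr19:8723437-8723511, plus strand: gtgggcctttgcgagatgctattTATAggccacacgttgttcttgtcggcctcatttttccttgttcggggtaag
Snhg3, chr4:132353662-132353736, minus strand: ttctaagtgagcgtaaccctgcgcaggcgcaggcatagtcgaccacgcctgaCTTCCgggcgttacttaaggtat
Snhg5, chr9:88522873-88522947, minus strand: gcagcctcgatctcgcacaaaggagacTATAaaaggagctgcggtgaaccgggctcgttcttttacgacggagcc
Snhg8, chr3:123508312-123508386, minus strand: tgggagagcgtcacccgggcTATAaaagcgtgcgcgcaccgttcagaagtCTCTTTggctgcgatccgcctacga
Snhg12, chr4:132308628-132308702, plus strand: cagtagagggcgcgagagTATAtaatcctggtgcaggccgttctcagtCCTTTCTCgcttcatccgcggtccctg
Snhg15, chr11:6528736-6528810, minus strand: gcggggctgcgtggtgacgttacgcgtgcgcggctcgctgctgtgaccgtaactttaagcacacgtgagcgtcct
Snhg6 had no entry. The run stood at 4 of these 8 starts, against 18.3% of the 32851 starts in the table and 29 of 67 starts (43.3%) of cytosolic ribosomal protein genes. TATA stood at 5 of the 8, against 5.08% of all starts and 7.46% of ribosomal protein starts. Only the gene strand was searched, and the run and TATA windows do not overlap. Snhg8, Snhg12 and the downstream start of Gas5 held both, Snhg3 held only the run, Snhg1 and Snhg5 held only TATA, and Snhg15 and the first start of Gas5 held neither. In the Snhg5 line a C followed by 4 T stands after the start but beyond the 5-base window, and was not counted as a run. A match to these letters is a description of the sequence and not evidence of use.

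Libraries held 5202131 to 12419324 reads on genes in the hNK group and 13111043 to 16209895 in the teNK group. A level of 3 reads corresponded to 0.238 to 0.541 CPM (reads of a gene per 1000000 reads on genes, with libraries scaled by the trimmed mean of M values) in hNK and 0.190 to 0.241 CPM in teNK libraries. The deposited descriptions of the teNK libraries mention repeat lanes of the same library, which is not said of hNK libraries, so this difference in sequencing and the groups cannot be told apart. All 12 NK cell marker genes were tested, and 11 were higher and 1, Eomes, was lower in teNK. Their summed level was 7312 to 8306 CPM in hNK and 13706 to 14183 CPM in teNK libraries, with Ncr1, the activating receptor NKp46, at 209 and 1011 CPM, and the part of this in the results below was not tested. Of 8 T cell markers, Cd4, Cd8a, Cd8b1 and Cd5 had 0 to 2 reads in every library. The 8 together summed to 23.3 to 46.0 CPM in hNK and 29.2 to 39.4 CPM in teNK libraries. Of the 4 that were tested only Cd3d was higher in teNK (2.25 and 4.90 CPM, edgeR adjusted p = 0.000403), and none was lower.

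**Figure D1:**
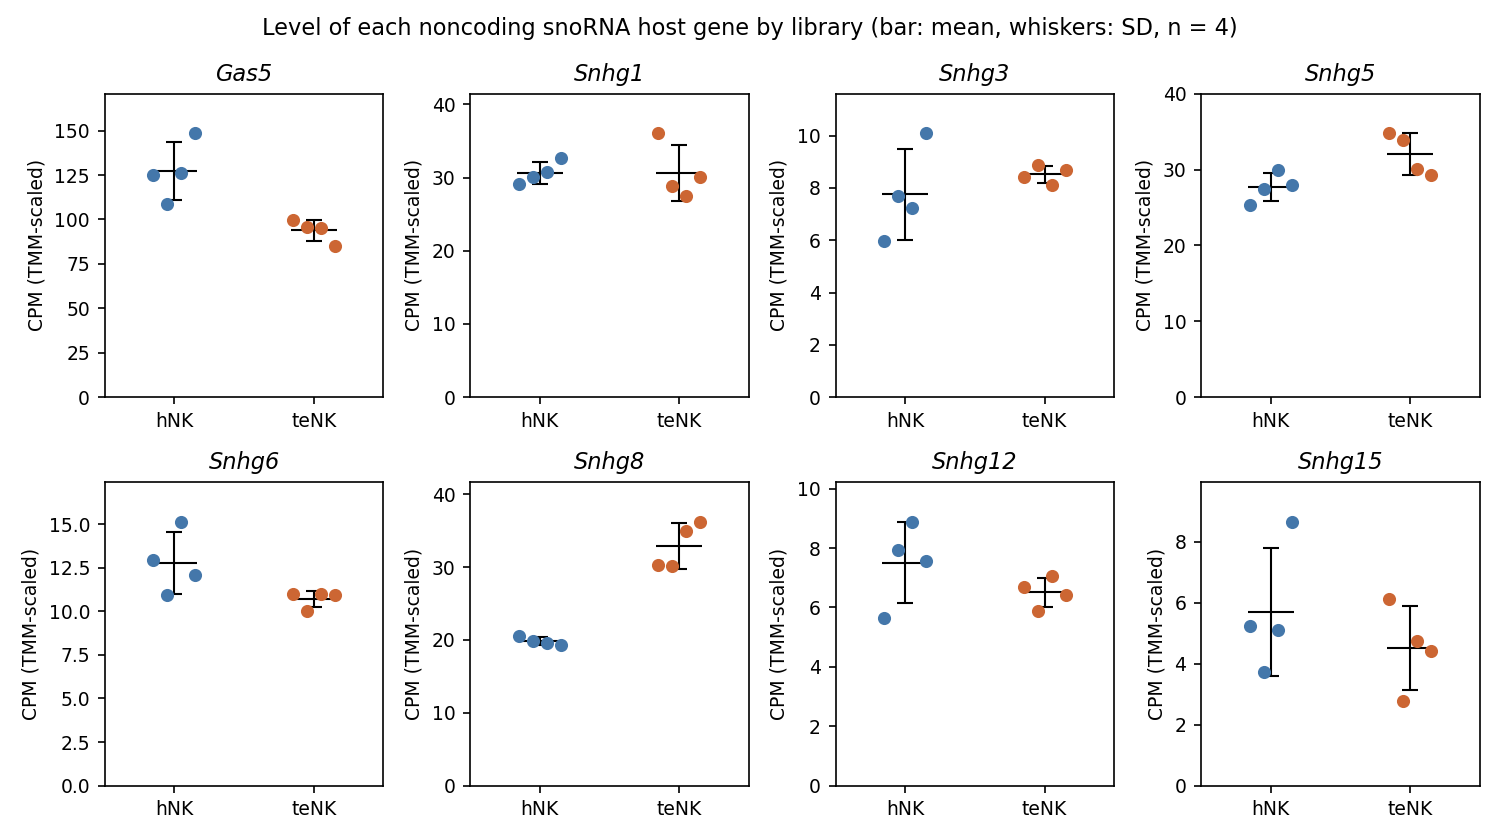
Level of each host gene in CPM (vertical axis, from 0, its own scale in each panel) in the 4 hNK and 4 teNK libraries. Points are libraries, bars are means and whiskers are SD. The groups separate for Gas5, at 109 to 149 CPM in hNK and 85.3 to 99.5 in teNK, and for Snhg8, at 19.3 to 20.6 and 30.2 to 36.2.

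The host genes did not move together between the groups. Snhg8 rose 1.65-fold in teNK cells and Snhg5 rose 1.17-fold, Gas5 was 1.35-fold lower, and the other 5 did not pass the test. Over all tested genes 26.4% were higher and 25.6% lower by the same test (51.9% in either direction, edgeR quasi-likelihood test, Benjamini-Hochberg adjusted p under 0.05), so the 2 of 8 higher and 1 of 8 lower are near or under the background. With the total read count as the only scaling the balance was different, with 2710 genes higher and 5113 lower of the 13903, and 1 host higher and 2 lower. The median log2 fold change (teNK minus hNK) of the 8 was -0.09, against -0.02 for all tested genes. In RNA from bulk cells, fewer cells of a type and less RNA per cell cannot be told apart.

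Gas5 (ENSMUSG00000053332, chr1:161034422-161038539, plus strand) holds 10 annotated snoRNA genes, more than any other of the 8. Its level was 125, 109, 126 and 149 CPM in hNK libraries 1 to 4 and 99.5, 95.7, 95.02 and 85.3 CPM in teNK libraries 1 to 4. Every teNK library lay below every hNK library. The means were 127 ± 16.4 CPM in hNK and 93.9 ± 6.06 CPM in teNK (SD, n = 4). In the edgeR quasi-likelihood test over all genes, the log2 fold change was -0.43 ± 0.08 (SE, 95% interval -0.60 to -0.25, adjusted p = 0.000376). Gas5 was the most abundant of the hosts, with 765 to 1515 reads per library. For comparison, 20.1% of all tested genes had a lower log2 fold change. Without hNK libraries 3 and 4, which had the fewest reads, the log2 fold change was -0.32 (edgeR adjusted p = 0.00428).

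Snhg8 (ENSMUSG00000104960, chr3:123507552-123508404, minus strand) is the smallest of the hosts and holds the snoRNA gene Snora24. It measured 20.6, 19.9, 19.6 and 19.3 CPM in hNK libraries 1 to 4 and 30.2, 30.2, 34.9 and 36.2 CPM in teNK libraries 1 to 4. The groups did not overlap, and the hNK libraries were closer to each other than the teNK libraries. The means were 19.8 ± 0.551 CPM in hNK and 32.9 ± 3.15 CPM in teNK (SD, n = 4). The log2 fold change was 0.72 ± 0.09 (SE, 95% interval 0.53 to 0.91, edgeR adjusted p = 4.12e-06), above that of 87.7% of tested genes. Gas5 and Snhg8 were the only 2 of the 8 whose libraries did not overlap between groups, which holds for 46.5% of all tested genes (24.1% higher and 22.4% lower in teNK). Neither passed a test against a change of 1.5-fold (edgeR, adjusted p = 1 for Gas5 and 0.121 for Snhg8).

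Snhg5 (ENSMUSG00000097195, chr9:88521050-88522929, minus strand) holds the box C/D snoRNA gene Snord50a and 1 further snoRNA gene. Its level was 25.4, 27.4, 29.96 and 27.95 CPM in hNK libraries 1 to 4 and 34.8, 33.9, 30.1 and 29.3 CPM in teNK libraries 1 to 4. The groups touched: teNK library 4 lay below hNK library 3. The means were 27.7 ± 1.88 and 32.0 ± 2.73 CPM (SD, n = 4), with a log2 fold change of 0.22 ± 0.09 (SE, 95% interval 0.04 to 0.41, edgeR adjusted p = 0.0408). Snhg5 lost the call in 13 of 20 alternative analyses, among them those without hNK library 1, 2 or 4 or teNK library 1 or 2, in which the log2 fold change was 0.18 to 0.23. With the total read count as the only scaling it was 0.09 (adjusted p = 0.383).

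Snhg1 (ENSMUSG00000108414, chr19:8723475-8726443, plus strand), which holds 8 snoRNA genes, showed a log2 fold change near 0. It measured 29.1 to 32.6 CPM in hNK and 27.4 to 36.1 CPM in teNK, with means of 30.6 ± 1.49 and 30.6 ± 3.80 CPM (SD, n = 4). The log2 fold change was 0.01 ± 0.09 (SE, 95% interval -0.19 to 0.20, edgeR adjusted p = 0.953), and its sign turned with the scaling, to -0.12 with the total read count alone. The highest teNK value came from library 1, and the other 3 teNK libraries lay between 27.4 and 30.1 CPM.

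Snhg6 (ENSMUSG00000098234, chr1:9941959-9944118, minus strand), host of the box C/D snoRNA gene Snord87, measured 12.9, 10.9, 15.1 and 12.1 CPM in hNK libraries 1 to 4 and 10.97, 10.01, 10.99 and 10.91 CPM in teNK libraries 1 to 4. The log2 fold change was -0.24 ± 0.12 (SE, 95% interval -0.50 to 0.02, edgeR adjusted p = 0.108). It passed the threshold without hNK library 2 (-0.32, adjusted p = 0.0491) and with the total read count as the only scaling (-0.37, adjusted p = 0.0179).

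Snhg3, Snhg12 and Snhg15 had the fewest reads and the widest 95% intervals of the 8 hosts. Snhg3 (ENSMUSG00000085241, chr4:132348014-132353686, minus strand), host of the 2 Snora73 genes, had 7.75 ± 1.72 CPM in the hNK and 8.52 ± 0.339 CPM in the teNK group (SD, n = 4), a log2 fold change of 0.17 (95% interval -0.15 to 0.49, edgeR adjusted p = 0.362). Snhg12 (ENSMUSG00000086290, chr4:132308623-132311024, plus strand), with 5 snoRNA genes, measured 7.51 ± 1.36 and 6.51 ± 0.492 CPM, a log2 fold change of -0.18 (95% interval -0.52 to 0.15, edgeR adjusted p = 0.350). Snhg15 (ENSMUSG00000085156, chr11:6525591-6528760, minus strand), with 1 snoRNA gene, measured 5.68 ± 2.099 and 4.51 ± 1.36 CPM, a log2 fold change of -0.27 (95% interval -0.82 to 0.28, edgeR adjusted p = 0.409). Each of the 3 overlapped between groups. Snhg15 had 31 to 93 reads per library, and its values ran from 2.79 CPM in teNK library 2 to 8.66 CPM in hNK library 4. Without hNK libraries 3 and 4 its log2 fold change was 0.01. A fall of the size seen for Gas5 lies inside the intervals of Snhg6, Snhg12 and Snhg15.

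Levels per kilobase of annotated exon compare the hosts with each other, as far as the annotated lengths hold. In hNK cells Gas5 was first at 33.8 ± 4.35 CPM per kb, followed by Snhg8 at 23.3 ± 0.646 and Snhg5 at 16.0 ± 1.08 (SD, n = 4). In teNK cells Snhg8 was first at 38.5 ± 3.69 CPM per kb, followed by Gas5 at 24.97 ± 1.61 and Snhg5 at 18.5 ± 1.58. Snhg6, Snhg1 and Snhg3 followed at 11.1, 10.3 and 7.86 CPM per kb in hNK and 9.35, 10.3 and 8.64 in teNK, and Snhg6 and Snhg1 did not differ beyond their spread in hNK. Snhg15 and Snhg12 were last, at 4.18 ± 1.54 and 3.13 ± 0.567 in hNK and 3.32 ± 1.00 and 2.71 ± 0.205 in teNK, and lay within their spread of each other. The lengths are of all exons of all annotated transcripts. Retained-intron transcripts were 20 of 25 for Gas5, 14 of 18 for Snhg1 and 3 of 6 for Snhg5. The exons of Snhg1, Snhg8 and Snhg12 together cover the whole gene. The levels of these genes per length of spliced RNA are therefore understated to different extents. The order of Gas5, Snhg8 and Snhg5 in either group, and the place of Snhg12, may differ on spliced lengths.

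**Figure D2:**
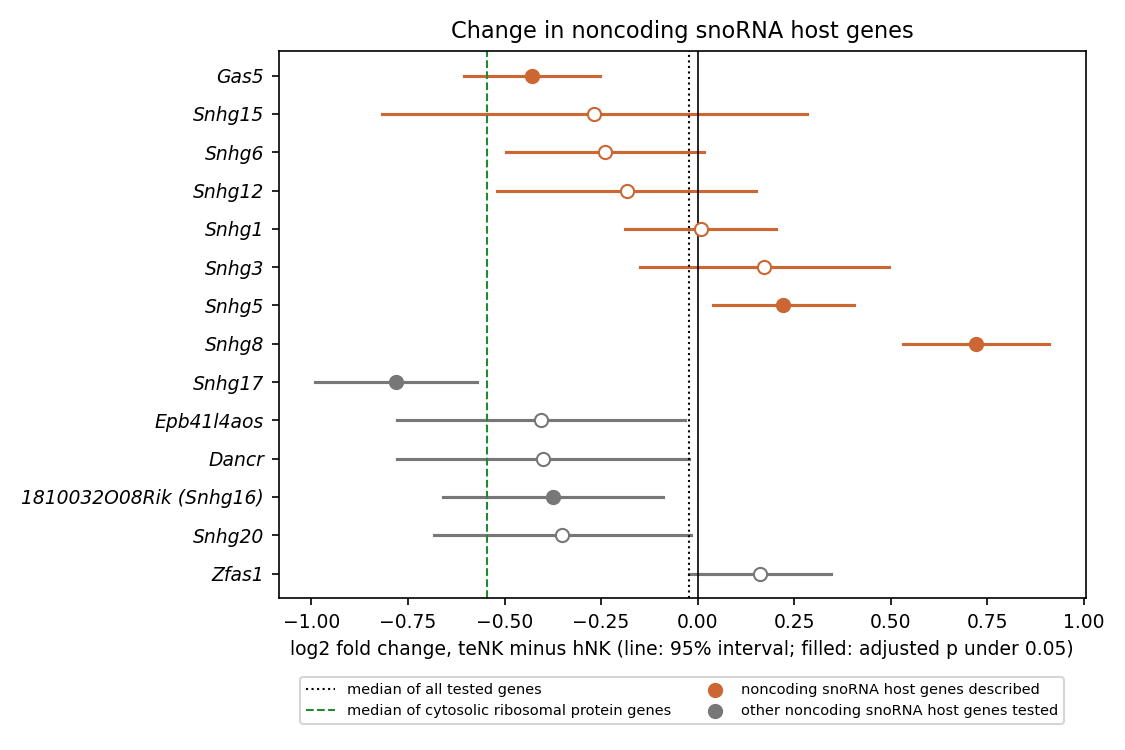
Log2 fold change (teNK minus hNK, horizontal axis) of the 8 host genes (orange) and of the 6 other tested noncoding hosts (grey), with 95% intervals. Filled points passed the edgeR test, the dotted line is the median of all tested genes (-0.02), and the dashed line is the median of cytosolic ribosomal protein genes (-0.54).

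The hosts were also compared with each other within each library, since a ratio of 2 genes in 1 library does not depend on the scaling. Of the 28 pairs, 9 had ratios that did not overlap between the groups (two-sided exact permutation test, p = 0.0286, the smallest that 4 against 4 libraries can give, and 0.0889 after Benjamini-Hochberg adjustment over the 28), so no pair passed the adjusted threshold. The share of such ratios among pairs of other tested genes was not worked out. Of single tested genes, 46.5% did not overlap between the groups. Snhg8 was part of 5 of these 9 host pairs and Gas5 of 4. The log2 ratio of Gas5 to Snhg8 went from 2.67 ± 0.21 in hNK to 1.52 ± 0.22 in teNK (SD, n = 4), a 2.23-fold change of the ratio. The ratio of Gas5 to Snhg5 changed by -0.64 and that of Gas5 to Snhg1 by -0.42 on the log2 scale, while Gas5 to Snhg6 changed by -0.19, with overlapping libraries (exact permutation p = 0.200, adjusted 0.329).

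Summed over the 8 genes, the level was 239 ± 21.5 CPM in hNK and 220 ± 9.23 CPM in teNK (SD, n = 4, two-sided exact permutation p = 0.171). Without Gas5 the other 7 summed to 105 to 118 CPM in hNK and 120 to 133 CPM in teNK, and most of that difference was Snhg8. The 6 genes other than Gas5 and Snhg8 summed to 92.04 ± 7.13 CPM in hNK and 92.9 ± 6.81 CPM in teNK (SD, n = 4, exact permutation p = 0.914). Gas5 made up 50.3 to 55.7% of the reads of the 8 genes in hNK libraries and 40.3 to 44.3% in teNK libraries (exact permutation p = 0.0286). Within groups, hNK library 4 had 6 of the 8 genes above the group mean and hNK library 1 had 2, and teNK library 1 had 6 and teNK library 2 had 3.

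Annotated genes on the opposite strand start within 1000 bases of the start of 2 of the hosts. Slc3a2, which encodes the heavy chain of amino acid transporters, starts 106 bases from Snhg1 and fell in teNK cells from 301 ± 9.42 to 118 ± 13.05 CPM (SD, n = 4, edgeR adjusted p = 1.92e-10), while Snhg1 had 30.6 CPM in both groups. The log2 ratio of Snhg1 to Slc3a2 rose by 1.36, from -3.30 ± 0.06 in hNK to -1.94 ± 0.07 in teNK (two-sided exact permutation p = 0.0286, also after adjustment over the 2 neighbours). Zbtb37, a zinc finger gene whose annotated start lies 427 bases inside Gas5 on the other strand, measured 72.2 ± 3.46 and 70.6 ± 7.12 CPM (edgeR adjusted p = 0.794). The log2 ratio of Gas5 to Zbtb37 fell by 0.40, from 0.81 ± 0.16 to 0.41 ± 0.15 (exact permutation p = 0.0286, adjusted 0.0286). Without hNK library 4 it fell by 0.32, while the log2 ratio of Snhg1 to Slc3a2 rose by 1.38. The adjusted exact permutation p of both neighbours was then 0.0571. The smallest unadjusted p that 3 against 4 libraries can give is 0.0286.

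**Figure D3:**
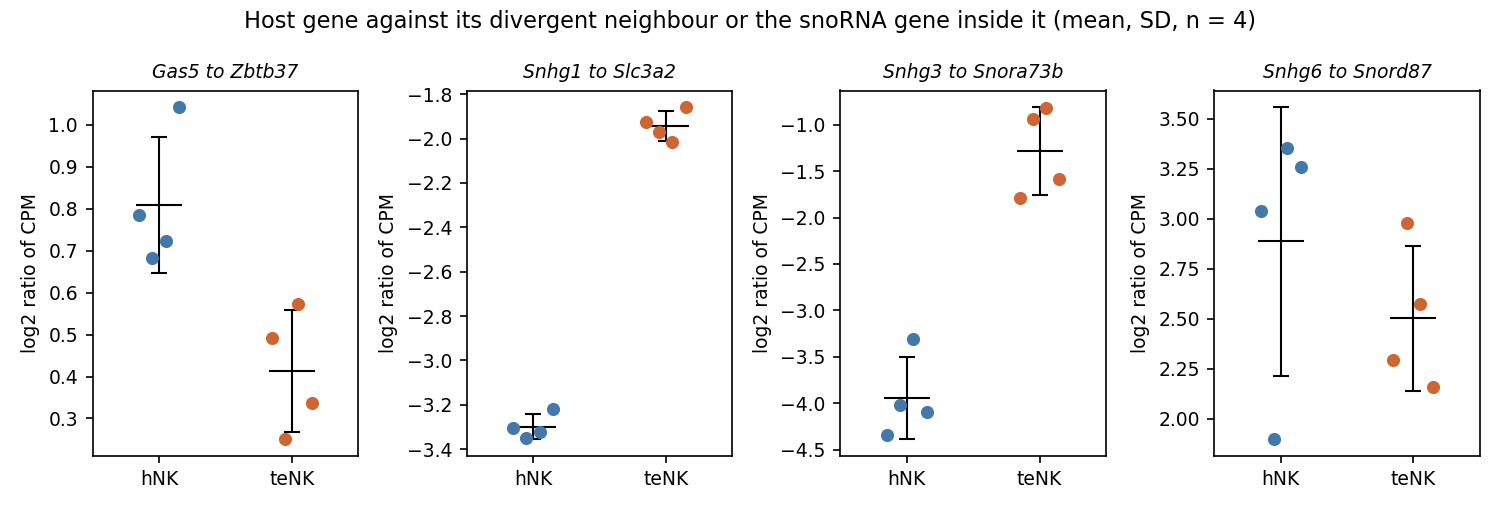
Log2 ratio of CPM (vertical axis, its own scale in each panel) of Gas5 to Zbtb37, Snhg1 to Slc3a2, Snhg3 to Snora73b and Snhg6 to Snord87 in the 4 hNK and 4 teNK libraries, with means and SD. The groups separate in the first 3 panels and overlap for Snhg6 to Snord87.

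The annotation places 30 snoRNA gene entries inside the 8 hosts, each intronic in at least 1 host transcript. Snord80 in Gas5 and Snora16a in Snhg12 each have overlapping entries at nearly the same position, which are counted separately throughout. By their own letters 18 were box C/D (TGATGA in the first 25 bases and CTGA in the last 20), 7 were box H/ACA (ACA just before the last 3 bases) and 5 held neither pattern. Those below are shown because the read counts turn on them: Snora73a and Snora73b are near copies inside Snhg3, Snord87 lies in Snhg6, and Snord47 (Gas5), Snord50a (Snhg5) and Snora24 (Snhg8) are examples with 0 reads. Sequences are those of GENCODE M21 transcripts at GRCm38 positions. In the Snora73 pair capitals mark the 7 bases of 205 that differ (96.6% identity), and in the others they mark the matched boxes.
Snora73a, chr4:132352775-132352979, minus strand: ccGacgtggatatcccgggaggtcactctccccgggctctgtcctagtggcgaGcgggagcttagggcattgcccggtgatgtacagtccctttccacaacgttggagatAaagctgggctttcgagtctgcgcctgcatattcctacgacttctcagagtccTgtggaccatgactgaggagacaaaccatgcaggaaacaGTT
Snora73b, chr4:132352322-132352526, minus strand: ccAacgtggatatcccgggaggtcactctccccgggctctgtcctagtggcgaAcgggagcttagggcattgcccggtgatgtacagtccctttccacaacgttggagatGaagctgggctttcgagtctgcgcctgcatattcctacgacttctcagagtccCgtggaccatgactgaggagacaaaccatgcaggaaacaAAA
Snord87, chr1:9942463-9942549, minus strand: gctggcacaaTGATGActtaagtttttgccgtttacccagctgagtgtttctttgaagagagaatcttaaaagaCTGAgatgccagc
Snord47, chr1:161038082-161038158, plus strand: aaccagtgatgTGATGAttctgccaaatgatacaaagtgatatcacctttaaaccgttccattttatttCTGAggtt
Snord50a, chr9:88521529-88521600, minus strand: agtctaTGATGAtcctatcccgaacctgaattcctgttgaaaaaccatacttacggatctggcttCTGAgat
Snora24, chr3:123507937-123508066, minus strand: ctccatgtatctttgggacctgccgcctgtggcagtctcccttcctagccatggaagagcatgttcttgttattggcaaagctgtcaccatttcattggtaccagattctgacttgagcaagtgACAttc

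Snora73b, a box H/ACA snoRNA needed for cleavage of the ribosomal RNA precursor, was the snoRNA of the hosts with the most reads and was lower in teNK cells, while its host Snhg3 did not pass the test. It had 1460, 1569, 437 and 959 reads in hNK libraries 1 to 4 and 442, 269, 179 and 342 reads in teNK libraries 1 to 4. Its level was 123 ± 41.3 CPM in hNK and 21.6 ± 7.04 CPM in teNK (SD, n = 4), without overlap, and 5.64-fold lower in teNK (log2 fold change -2.50 ± 0.22, SE, edgeR adjusted p = 9.47e-08). The log2 ratio of Snhg3 to Snora73b rose from -3.94 ± 0.44 to -1.29 ± 0.47 (two-sided exact permutation p = 0.0286, adjusted 0.0571 over the 2 host and snoRNA pairs, which were chosen after their values were seen). Over all annotated snoRNA genes 85 of 1507 were tested, and 44 were lower and 7 higher, with a median log2 fold change of -0.74. The share of reads on Rn7sk, a nuclear RNA that is not polyadenylated, was 1.29 to 1.77% in hNK and 0.640 to 0.822% in teNK libraries (exact permutation p = 0.0286). These libraries were made from messenger RNA, in which mature snoRNAs are not selected, so the part of RNA selection in the Snora73b difference was not tested. Reads of Snora73a and Snora73b may also be hard to place apart.

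The second snoRNA with reads was Snord87, at 1.81 ± 0.758 CPM in hNK and 1.95 ± 0.516 CPM in teNK (7 to 37 reads per library, log2 fold change 0.00, edgeR adjusted p = 0.991). Snora73a had 0 to 2 reads per library. The other 27 snoRNA genes had 0 reads in all 8 libraries, and all 27 lie wholly inside annotated exons of their host, whereas Snora73b and Snord87 touch no host exon and 22.4% of Snora73a lies outside. Over all annotated snoRNA genes, 2 of 157 that lie wholly inside an exon of another gene on the same strand had a read, against 235 of 1277 that no exon touches (18.4%) and 8 of 14 covered by an exon on the other strand. For the snoRNAs of Gas5, Snhg1, Snhg5, Snhg8, Snhg12 and Snhg15 these counts of 0 are given as counts only, and whether reads from their positions were counted for the host or set aside as ambiguous was not tested.

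Apart from snoRNA genes, 2 of the hosts share exonic bases with another gene, and their counts are less certain for that reason. Exons of other hosts cover snoRNA genes, among them all 10 in Gas5 and the 1 in Snhg8, and the part of this in their counts was not tested. Snhg3 shares 135 exonic bases with Rcc1 on the same strand (13.7% of its exons) and 705 (71.5%) with Gm17300 on the opposite strand, which fell from 4.82 ± 1.68 to 1.52 ± 0.605 CPM (SD, n = 4, edgeR adjusted p = 0.000229). Rcc1, the exchange factor of the Ran GTPase, measured 9.84 ± 2.62 and 8.52 ± 0.314 CPM (edgeR adjusted p = 0.355). Snhg6 shares 127 exonic bases (11.1%) with Mcmdc2 on the opposite strand, which had 0 to 5 reads per library. The kit marks strand, but the strand setting of the counting is not given in the sources used here. Reads set aside as ambiguous were 1.85 to 2.07% of all reads in hNK and 1.52 to 1.74% in teNK libraries (exact permutation p = 0.0286), and their part in the results was not tested.

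Of 13 further noncoding hosts listed, 11 were in the counts and 6 were tested. Against 26.4% higher and 25.6% lower over all tested genes, none of the 6 rose and 2 were lower (edgeR). Their median log2 fold change was -0.39. At an unadjusted p under 0.05 there were 0 higher and 5 lower, and DESeq2 and limma voom also called 0 higher. Snhg17 was lower, at 24.3 ± 1.89 CPM in hNK and 14.1 ± 1.28 CPM in teNK (SD, n = 4, log2 fold change -0.78 ± 0.10, SE, edgeR adjusted p = 5.71e-06), and every teNK library lay below every hNK library. 1810032O08Rik, the annotation's name for Snhg16, was lower at 8.19 ± 0.586 against 6.34 ± 0.376 CPM (log2 fold change -0.37, edgeR adjusted p = 0.0280), a call lost in 8 of 20 alternatives. Epb41l4aos (-0.40, adjusted p = 0.0649), Dancr (-0.40, 0.0703) and Snhg20 (-0.35, 0.0737) did not pass the test, and Zfas1 (0.16, 0.130) did not pass either. Every teNK library of Zfas1 (19.6 to 21.1 CPM) lay above every hNK library (17.8 to 19.5 CPM). In all, 3 of the 6 did not overlap between groups, against 46.5% of all tested genes. Snhg9, Snhg10 and Snhg14 had 0 to 10 reads per library, Snhg18 had 1 read in all and Snhg11 had 0.

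Genes with related roles are described beside the 25.6% of all tested genes that were lower. Of 77 cytosolic ribosomal protein genes 71 fell and none rose in edgeR (1 at an unadjusted p under 0.05, 0 in DESeq2 and 0 in limma voom), with a median log2 fold change of -0.54 (Rpl12 -0.87, Rpl5 -0.75, Rpl23 -0.74 and Rpl18 -0.73). Of 22 other 5′ TOP genes 17 fell and 1 rose (Eif4a2), with a median of -0.36 (Eef1g, a translation elongation factor subunit, -0.86, Larp1, which binds 5′ TOP messages, -0.61, Eif3k -0.54 and Eef1b2 -0.52). Gas5, with a pyrimidine run at its downstream start, fell by 0.43 on the same scale, while Snhg8, whose start also held a run, rose by 0.72. Snhg3 (0.17) and Snhg12 (-0.18), the other hosts with a run within 5 bases of the start, did not pass the test. The start of Snhg6 was not searched. Differences between these lists and the hosts were not tested.

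Of 20 genes for proteins of the snoRNA particles and their assembly 13 fell and none rose in edgeR, with a median log2 fold change of -0.50. At an unadjusted p under 0.05 there were 0 higher, as in DESeq2 and limma voom. Nhp2 (-0.89) and Dkc1 (-0.70) are subunits of box H/ACA particles, Dkc1 being the pseudouridine synthase, Fbl (-0.63) is the methyltransferase of box C/D particles, and Ruvbl1 (-0.58) acts in their assembly. Of 19 nonsense-mediated decay factors 3 rose and 2 fell, with a median of -0.06: among them Pnrc2 (0.37) and Upf3a (0.22) rose, and Etf1 (-0.46) and Smg9 (-0.34) fell. The counts for this decay list moved with the analysis, from 1 to 4 rising when libraries were left out in turn, and to 1 rising and 11 falling with the total read count as the only scaling.

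Protein-coding hosts were described in the same way. On a list of 27 outside the ribosome 13 fell and 3 rose, with a median of -0.21, and Hspa9, a mitochondrial chaperone, fell most clearly (-1.95, followed by Gnl3 -0.65, Eef1b2 -0.52 and Wdr43 -0.49). Of 258 protein-coding genes that hold a snoRNA gene on the same strand in the annotation 193 were tested, and 82 fell and 36 rose, with a median of -0.10. Without ribosomal protein genes these were 53 lower and 36 higher of 163, with a median of -0.04 (Iars -1.96, Rnf149 -2.01 and Phb2 -0.85). For scale, of 477 tested long noncoding genes of the annotation classes that hold the 8 hosts, 124 rose and 131 fell, with a median of -0.08, close to the -0.09 of the hosts.

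**Figure D4:**
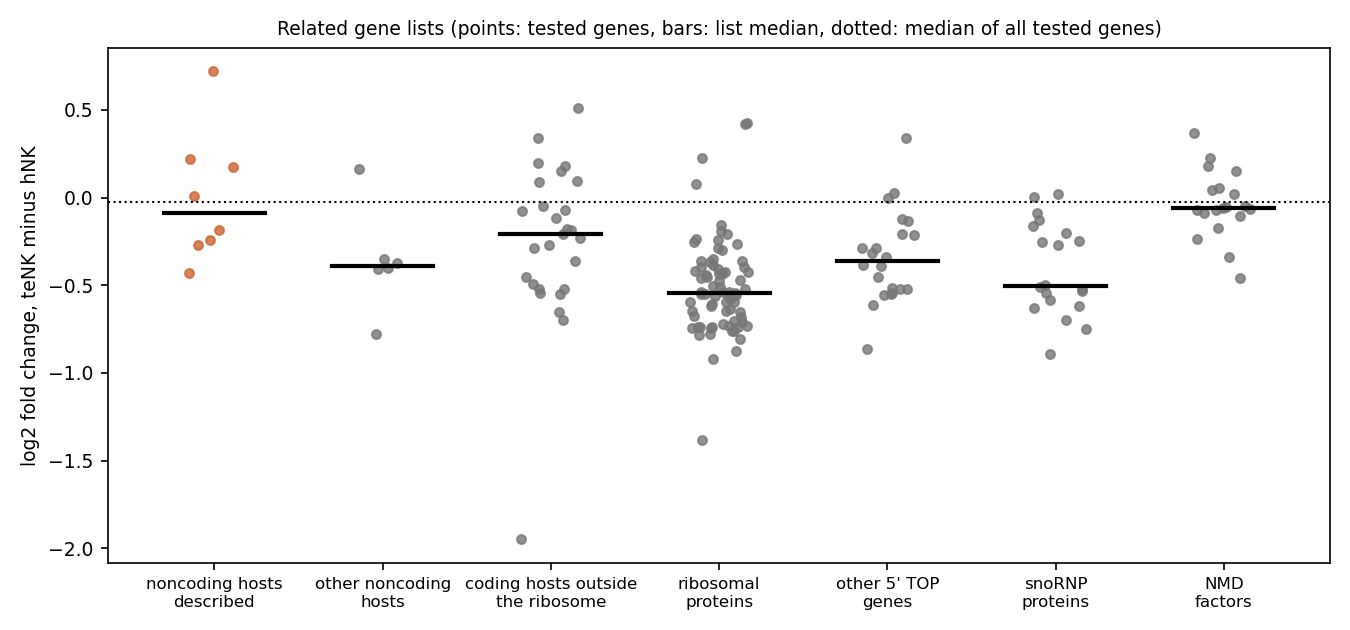
Log2 fold change (teNK minus hNK, vertical axis) of each tested gene (points) in the 8 host genes and 6 related lists, with list medians (bars) and the median of all tested genes (dotted line). NMD stands for nonsense-mediated decay and snoRNP for the particles of snoRNAs and their proteins.

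Because Gas5 RNA is known to bind the glucocorticoid receptor, the receptor gene and 9 of its known targets were listed. Of these 10 genes 8 rose and none fell in edgeR (1 fell at an unadjusted p under 0.05, 0 in DESeq2 and 1 in limma voom). Over all tested genes 26.4% were higher and 25.6% lower. The median log2 fold change of the 10 was 1.45 (Dusp1 3.71, Zfp36 2.48, Sgk1 2.24 and Per1 2.03), and Gas5 fell by 0.43. Any part of Gas5 in these changes was not tested. Among the 10439 other genes whose mean log2 CPM was 2 or more, the 5 whose profile over the 8 libraries lay nearest the mean profile of the hosts were Wdr5, Hnrnpab, Med28, Rmdn3 and Sem1. Their root mean square differences from it were 0.0396 to 0.05002 on the log2 scale, and the mean profile itself differed between groups by -0.01.

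Markers of other cell types moved with the groups. All 10 platelet and megakaryocyte genes were higher in teNK, their summed level being 18.4 to 42.9 CPM in hNK and 299 to 509 CPM in teNK libraries. Of 8 B cell genes 7 were higher (85.3 to 122 against 125 to 150 CPM summed). Of 9 myeloid genes 2 were tested and both were higher (20.4 to 36.3 against 151 to 173 CPM summed). Nearly all of that sum was Itgam, which mature NK cells also express (27.5 and 151 CPM), while Lyz2 had 0.459 and 6.94 CPM. Ly6g had 0 reads in every library, and S100a8 and S100a9 had 0 in every hNK library. Of 8 T cell genes 4 were tested and 1 was higher (23.3 to 46.0 against 29.2 to 39.4 CPM), and of 6 dendritic cell genes the 1 tested did not pass. Red cell genes summed to 0 to 0.541 CPM in hNK and 2.65 to 10.5 CPM in teNK. The part of these cells in the changes of Gas5, Snhg8 and Snhg5 was not tested.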

How the data were processed

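Raw read counts per gene from 8 mouse NK cell RNA libraries were deposited by the authors, 1 table of counts per library, with 54838 gene identifiers and 5 summary lines that were left out of library sizes and tests. Per the labels' protocols, total RNA was used for a stranded messenger RNA kit. Per the submitters' processing notes, HISAT2 2.1.0, SAMtools, HTSeq and genome build GRCm38 were used, and the annotation release and strand setting of the counting are not given in the sources used here. Reads without a gene were 32.3 to 41.2% of each library's total. Symbols, exons, positions and snoRNA sequences came from GENCODE M21 (54723 identifiers matched, 115 did not). Start sequences came from RefSeq, which had start entries for 7 of the 8 hosts.

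Counts were tested with the edgeR 4.0.16 quasi-likelihood test in R 4.3.3 (TMM scaling, low-count filter by group, group as the only term) over 13903 genes, with Benjamini-Hochberg adjustment and a threshold of 0.05. Levels are TMM-scaled CPM with SD over 4 libraries, and total counts per library set the floor of 3 reads. Intervals at single libraries cover counting error only. Within-library ratios used two-sided exact permutation tests. Replicate pairs differed beyond sampling noise (chi-square per degree of freedom 3.51 to 11.3), so none was counted as 1 sample. DESeq2 1.42.0, limma 3.58.1, other scalings and filters, thinning, a replicate block and left-out libraries were alternatives. Ratio tests without single libraries, the fit without hNK libraries 3 and 4, and the alternatives for genes and lists other than the 8 hosts were added after seeing the data. Scripts were tested on simulated data.

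The host genes and all gene lists were chosen with earlier results of these data known. Named genes were all 8 hosts, other noncoding hosts with a read, neighbours that start within 1000 bases, up to 4 genes with the smallest adjusted p from each list, snoRNA genes that passed the filter and the 5 nearest profiles. Upf3a, Eif4a2, Gm17300 and Rcc1 were named after their values were seen. Some genes that this rule names are not reported here.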

Additional observations from a re-analysis of the deposited data

Results flagged for a closer look

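Snhg6 in teNK replicate 2 stood apart from the other teNK libraries. Its level was 10.01 CPM, while the other 3 teNK libraries lay between 10.91 and 10.99 CPM, and its gap to the nearest of them took up 0.922 of the range of the group, above Dixon's 95% critical value for 4 libraries. Of 20 groups of 4 values examined this was the only one, and chance alone marks about 1 in 20. Snhg6 had 167, 158, 137 and 143 reads in teNK libraries 1 to 4. The part of counting error in the gap was not tested. The hNK libraries of Snhg6 ran from 10.9 to 15.1 CPM, so the low library lies below all of them, and the cause was not tested.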

How the results depend on the processing

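Gas5 and Snhg8 kept their direction under all 20 alternatives (log2 fold change -0.56 to -0.32 and 0.57 to 0.76) and lost the call only in the test against 1.5-fold (Gas5 -0.43, Snhg8 0.72), which also left 0 of the 8 hosts higher and 0 lower, and 1297 genes higher and 850 lower. The number of hosts higher in teNK fell to 1 with upper quartile scaling, library size alone, scaling over protein-coding genes, DESeq2, no filter, thinning and the replicate block, each time because Snhg5 missed the threshold, at 0.19, 0.0937, 0.20, 0.24, 0.23, 0.21 and 0.22 in that order (0.22 against 1.5-fold). Thinning also left 2330 genes lower. Library size alone, under which the median of all genes was -0.15, made 2 hosts lower, as Snhg6 passed at -0.37.

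Leaving out 1 library at a time gave 1 to 2 hosts higher, 1 to 2 lower, and log2 fold changes of 0.18 to 0.27 for Snhg5, -0.32 to -0.16 for Snhg6, 0.05 to 0.29 for Snhg3, -0.32 to -0.10 for Snhg12, -0.46 to -0.04 for Snhg15 and -0.0779 to 0.0595 for Snhg1. Snhg1 turned sign to -0.0271 with upper quartile scaling, -0.12 with library size alone and -0.0162 with protein-coding scaling, and to -0.0177, -0.00412 and -0.0779 without hNK 1, hNK 2 and teNK 1. Snhg3 was -0.00470 when thinned, and Snhg15 was 0.00537 without hNK libraries 3 and 4. The change of the Gas5 to Zbtb37 ratio ran from -0.45 to -0.32 and that of Snhg1 to Slc3a2 from 1.33 to 1.38. Snord87 was -0.0278 with upper quartile scaling, -0.12 with library size alone, -0.0188 with protein-coding scaling, -0.23 without hNK libraries 3 and 4, and below 0 without hNK 1, 3 or 4 or teNK 1 or 4, ranging from -0.113 to 0.394 when 1 library was left out. Zbtb37 was 0.00638 without hNK libraries 3 and 4, above 0 without hNK 3 or teNK 3, and ranged from -0.0911 to 0.0235 when 1 library was left out. The cause of these changes was not tested.

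The replicate numbers are shared between the groups, but same-numbered libraries deviated together (r over 0.1) in 1 of 4 pairs, and 2 of 4 hNK and 1 of 4 teNK libraries correlated best with their own number, so the samples were not treated as paired. Among the related lists, the test against 1.5-fold left 15 of 71 ribosomal protein genes, 1 of 17 5′ TOP genes and 1 of 13 particle protein genes lower, and the other noncoding hosts called lower ranged from 0 to 5. Snhg15 had the fewest reads, and the part of depth in its spread was not tested.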
